A study of Mus musculus with 5 samples.

Results

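PDGF and smooth muscle genes were followed through the peak tables of 3 transcription factors in mouse endothelial precursor cells. The 7 genes looked up by symbol were the receptor genes Pdgfra and Pdgfrb, the ligand genes Pdgfa and Pdgfb, the contractile genes Acta2 and Tagln, and Myocd, which encodes a transcriptional coactivator. Of these 7 genes, 5 had at least 1 assigned peak of any factor, among 12507 genes listed in any table. FLI1-Dam had peaks at Pdgfra, Pdgfrb, Pdgfa, Pdgfb and Myocd, SOX7-Dam had peaks at Pdgfrb, Pdgfb and Myocd, and ERG-Dam had a peak at 0 of the 7. Acta2 and Tagln were in no table.

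The assay was DamID, in which a factor is fused to the bacterial adenine methylase Dam and marks GATC sites near the DNA it contacts. The libraries were 1 each of SOX7-Dam (cell line iSox7::Dam), FLI1-Dam (IFli1::Dam) and ERG-Dam (iErg::Dam), set against 2 libraries of Dam alone (iDam), 1 for SOX7 and 1 shared by FLI1 and ERG. All 5 libraries carry a Dam transgene in derivatives of the embryonic stem cell line Ainv18, so the controls differ from the factor lines by the fused factor and by being another line. FLK1+ cells were taken at day 3 of embryoid body differentiation, cultured for 1 day in blast medium with VEGF and IL6, and sorted as cKIT+ TIE2+. SOX7 belongs to the SOX family, and the other two are near relatives within the ETS family, all of them active in blood and vessel cells. With 1 library per factor there is no replicate, no test and no p-value. A difference between factors cannot be told apart from a difference between lines. SOX7-Dam also has a control library of its own, so its differences from FLI1-Dam or ERG-Dam cannot be told apart from a difference between controls. The tables give binding and no expression, so the cell type could not be checked against its markers.

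In growing vessels, endothelial cells secrete PDGF-B, the product of Pdgfb, and this ligand recruits pericytes and smooth muscle cells that carry the receptor PDGFRβ, the product of Pdgfrb. PDGF-A signals mainly through PDGFRα, a receptor of mesodermal and mesenchymal cells. Smooth muscle cells are recognised by smooth muscle alpha-actin (Acta2) and SM22-alpha (Tagln). Both genes are controlled by serum response factor (SRF), which binds CArG boxes and acts at muscle genes with its coactivator myocardin, the product of Myocd. FLK1+ cells from embryonic stem cells can give rise to smooth muscle as well as endothelium.

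The share of listed genes was read against the whole genome. FLI1-Dam listed 5 of the 7 genes (71.4%, exact binomial 95% interval 29.0 to 96.3), and its table held 35.5% of 21896 protein-coding genes. SOX7-Dam listed 3 of the 7 (42.9%, 9.90 to 81.6), against 23.1% of protein-coding genes. ERG-Dam listed 0 of the 7, which allows a share of up to 41.0%, against 5.8% of protein-coding genes. Each background share lay inside the interval of the 7 genes, so none of the 3 counts can be distinguished from the share over all protein-coding genes. The FLI1-Dam peaks came to 11 and the SOX7-Dam peaks to 3, and none of these 14 peaks was also assigned to another gene. Over all peaks, 1058 of 16834 for FLI1-Dam and 491 of 10029 for SOX7-Dam were assigned to several genes. No gene of the 7 was listed for SOX7-Dam without FLI1-Dam. Of the 5064 protein-coding genes listed for SOX7-Dam, 3654 were also listed for FLI1-Dam, so nothing particular to the 7 is read from this. The 3 genes with peaks of both SOX7-Dam and FLI1-Dam are set beside 16.7% of all protein-coding genes, or 13.3% when those with an ERG-Dam peak are left out. The 2 genes of FLI1-Dam alone are set beside 17.4%, the 2 of no factor beside 57.3%, and the 0 of all 3 factors beside 3.38%.

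**Figure D1:**
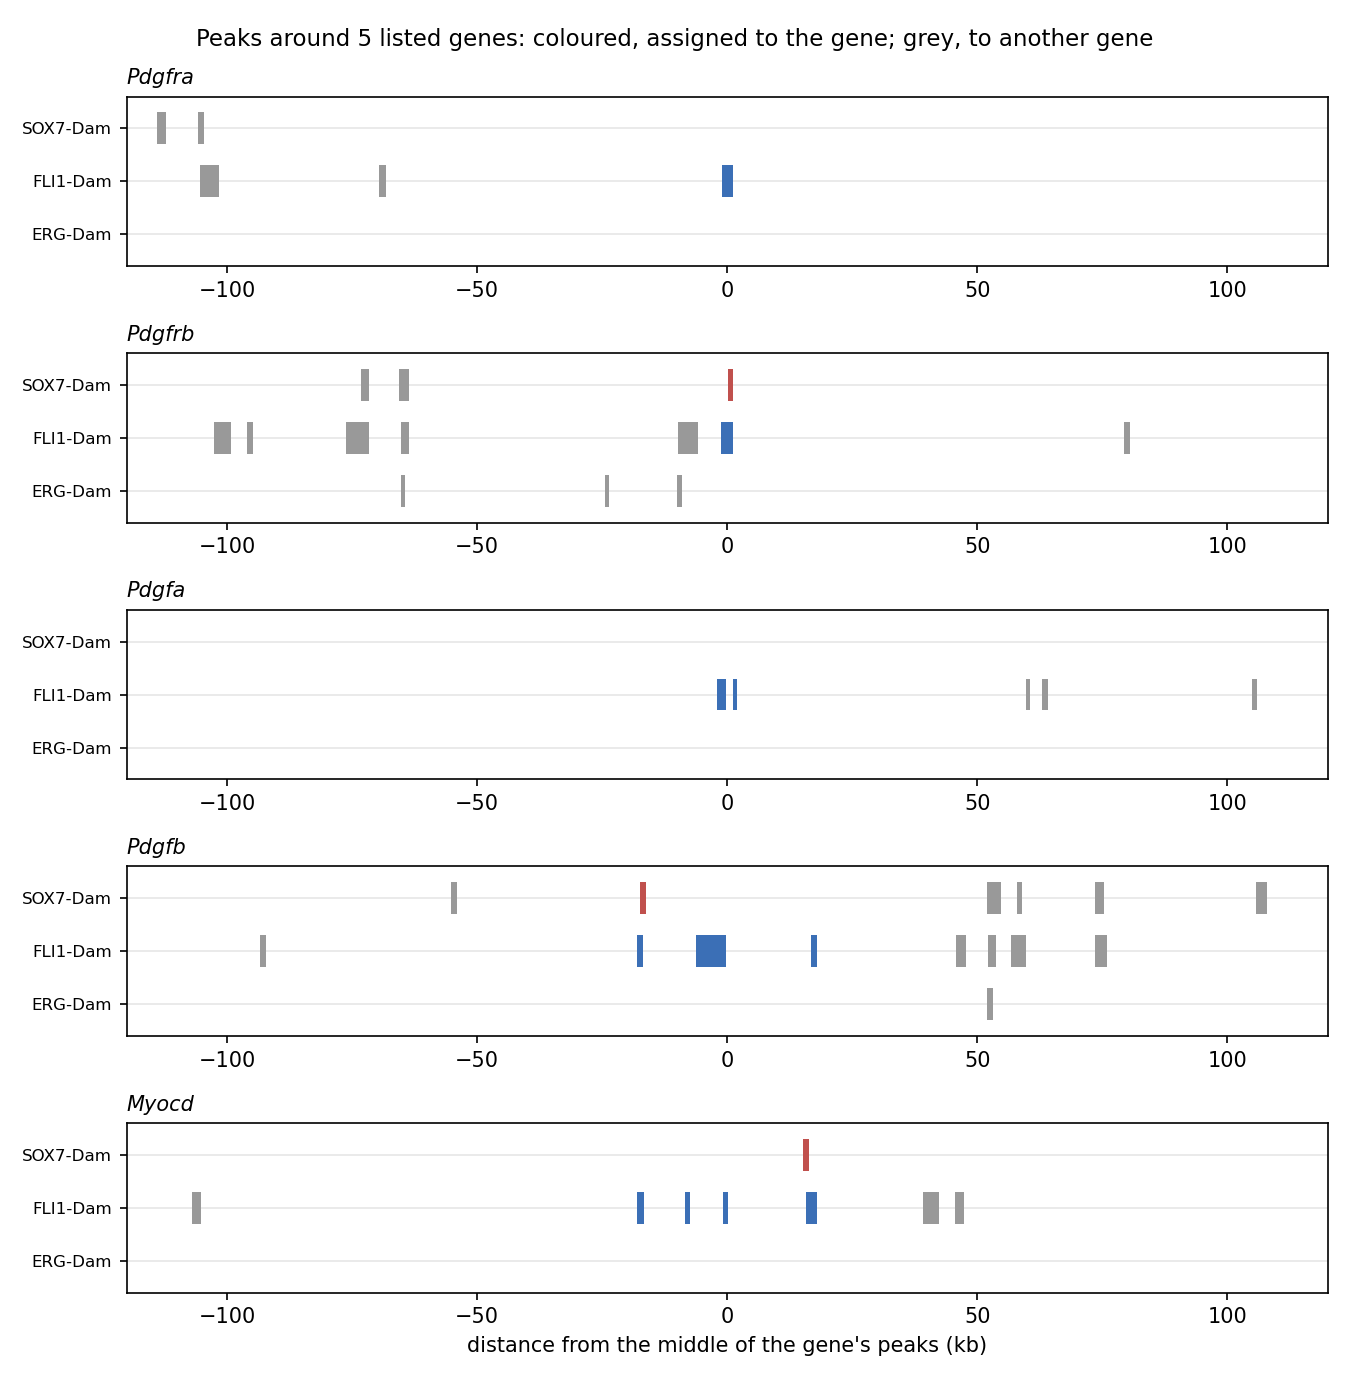
Peaks of SOX7-Dam (upper line), FLI1-Dam (middle line) and ERG-Dam (lower line) around the 5 listed genes, in kb from the middle of each gene's peaks. Coloured bars are peaks assigned to the named gene and grey bars peaks assigned to other genes. FLI1-Dam has coloured bars at all 5 genes, SOX7-Dam at Pdgfrb, Pdgfb and Myocd, and ERG-Dam at none.

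The receptor genes differed in how they were listed. At Pdgfrb, SOX7-Dam had 1 peak of 1050 bp on chromosome 18 from 61207236 to 61208286 (mm9, as for all peaks below), with 102 reads (Poisson 95% interval 83.2 to 124). FLI1-Dam had 1 peak of 2450 bp there, from 61205822 to 61208272, with 234 reads (205 to 266). The density of the SOX7-Dam peak was 97.05 reads per kb, 1.99 times the median of the SOX7-Dam table, which put Pdgfrb at rank 632 of 6530 genes and at percentile 90.3. The FLI1-Dam peak had 95.47 reads per kb, 1.39 times the median of that table, at percentile 75.5. These percentiles rank the reads per kb of a gene's peaks among all genes of the same table, since the tables are not scaled to each other. The nearest ERG-Dam peak ended 7.71 kb before the FLI1-Dam peak, at 61197114 to 61198114, was assigned to Cdx1 and met a FLI1-Dam peak.

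Pdgfra was listed for FLI1-Dam alone. Its peak on chromosome 5, from 75543371 to 75545621, was 2250 bp wide and held 98 reads (79.6 to 119), or 43.54 reads per kb. This was 0.632 times the table median, at percentile 14.5 of the FLI1-Dam table (6.23 to 27.4 from the counting interval). The closest SOX7-Dam peak lay 104 kb away, at Chic2, and the closest ERG-Dam peak 1039 kb away. The next protein-coding gene beyond Pdgfra in the RefSeq gene order is Kit, the receptor used for the sort, followed by Kdr, which encodes FLK1. Kit had 2 SOX7-Dam peaks with 147 reads and 2 FLI1-Dam peaks with 212 reads, and Kdr had 4 with 995 reads and 3 with 810 reads. Pdgfra, with 1 FLI1-Dam peak and 0 SOX7-Dam peaks, thus had fewer peaks than Kit and Kdr in both tables.

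Of the ligand genes, Pdgfb was listed for both factors and Pdgfa for FLI1-Dam alone. At Pdgfb, SOX7-Dam had 1 peak of 1150 bp on chromosome 15 from 79836379 to 79837529, with 74 reads (58.1 to 92.9) and 64.29 reads per kb, at percentile 70.4. FLI1-Dam had 3 peaks, at 79835862 to 79836962, 79847662 to 79853512 and 79870562 to 79871812, with 679 reads in all (629 to 732). Their joint density was 82.77 reads per kb, 1.20 times the table median and at percentile 65.3. The middle FLI1-Dam peak was 5850 bp wide, at percentile 99.2 of the widths of all FLI1-Dam peaks, while the other two were 1100 and 1250 bp wide. The tables give 1 read sum per gene, so the reads of this broad peak cannot be separated from those of its neighbours. At least 3 peaks were found at 16.1% of FLI1-Dam genes. The nearest ERG-Dam peak lay 34.0 kb beyond the last FLI1-Dam peak and was assigned to Rpl3, a ribosomal protein gene.

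Pdgfa had 2 FLI1-Dam peaks on chromosome 5, from 139447021 to 139448871 and from 139450121 to 139451071, 1250 bp apart. They held 156 reads (132 to 182) and 55.67 reads per kb, 0.809 times the table median, at percentile 31.0 (19.3 to 44.3). Its peak of 950 bp had the smallest width found in the FLI1-Dam table, which other peaks share. The closest SOX7-Dam peak was 222 kb away, at Sun1, and the closest ERG-Dam peak 181 kb away, at a gene given as Heatr2. Both genes listed for FLI1-Dam alone, Pdgfra and Pdgfa, were below the median density of that table, and the 3 genes listed for both factors were above the median density of both tables. This split was not compared with all genes, and not every gene followed it. Stat3, listed for FLI1-Dam alone, stood at percentile 78.8, and Kit, listed for both factors, at 41.1 (SOX7-Dam) and 26.4 (FLI1-Dam). The counting interval of Myocd in the SOX7-Dam table, 46.9 to 75.5 reads per kb, includes the median of that table, 48.8, and ranked by read count Pdgfb and Myocd stood below the middle of it, at percentiles 39.3 and 38.0.

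Myocd carried the most peaks of the 7 genes. FLI1-Dam had 4 peaks on chromosome 11, at 65049034 to 65050534, 65058634 to 65059734, 65066334 to 65067334 and 65082884 to 65085134, spaced 8100, 6600 and 15550 bp apart. They held 679 reads (629 to 732), the same sum as at Pdgfb, over a shorter peak length of 5854 bp against 8203 bp. The density was 115.99 reads per kb, 1.68 times the table median, at rank 1491 of 10246 genes and percentile 85.5. At least 4 peaks were found at 8.23% of FLI1-Dam genes. SOX7-Dam had 1 peak of 1200 bp, from 65082248 to 65083448, with 72 reads (56.3 to 90.7) and 59.95 reads per kb, at percentile 65.6. The nearest ERG-Dam peak was over 2 Mb away, at a distance of 2066 kb from the closest FLI1-Dam peak.

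**Figure D2:**
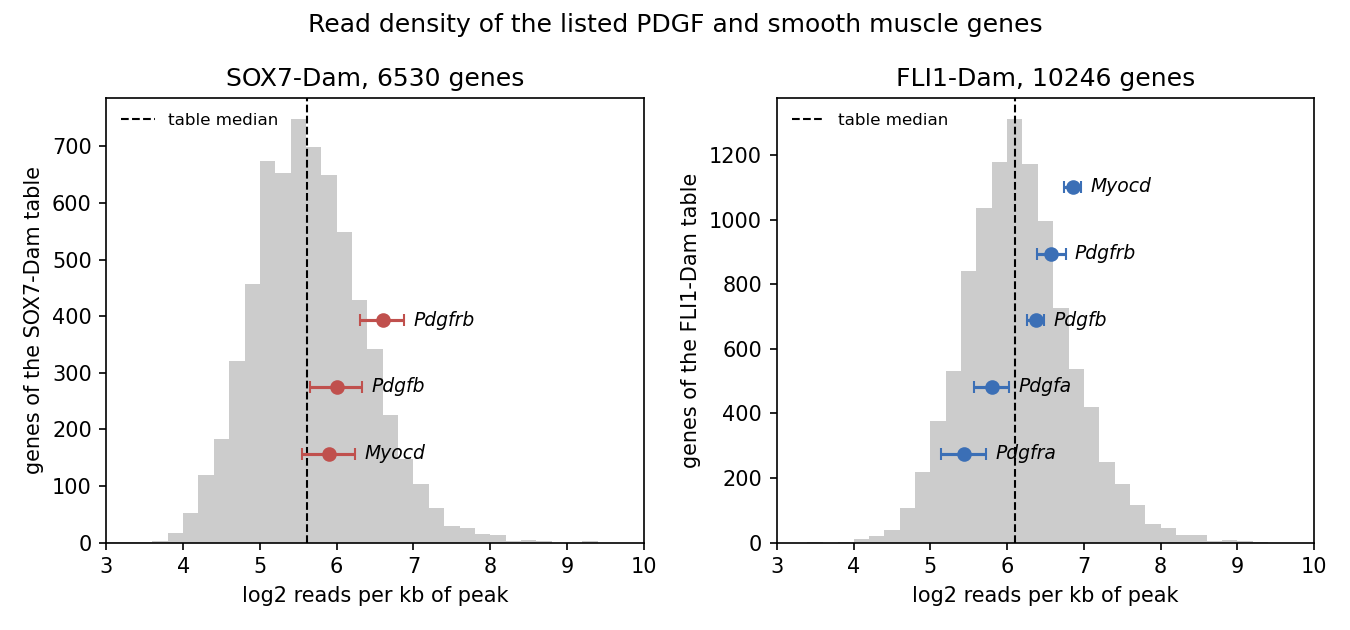
Read density of the listed genes (points, log2 reads per kb of peak, horizontal axis) over the histogram of all genes of the same table (grey, number of genes on the vertical axis); bars are 95% Poisson intervals, which cover counting error only, and the height of a point has no meaning. Pdgfrb is the densest of the 3 genes in the SOX7-Dam table and Myocd the densest of the 5 in the FLI1-Dam table, where Pdgfa and Pdgfra lie left of the median.

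The order of the densities within each table was partly resolved by the counting error. In the FLI1-Dam table Myocd stood first with 116 reads per kb (107 to 125), then Pdgfrb with 95.5 (83.6 to 109), Pdgfb with 82.8 (76.7 to 89.2), Pdgfa with 55.7 (47.3 to 65.1) and Pdgfra with 43.5 (35.3 to 53.1). The intervals of Pdgfb and Pdgfa did not meet, while those of every other pair of neighbours in this order did. In the SOX7-Dam table Pdgfrb had 97.1 reads per kb (79.1 to 118), Pdgfb 64.3 (50.5 to 80.7) and Myocd 60.0 (46.9 to 75.5). The interval of Pdgfrb met that of Pdgfb and not that of Myocd. Amplified reads are not independent molecules, so these intervals cover counting error only. Ranked by read count in place of density, Pdgfrb stood at percentile 52.7 of the SOX7-Dam table, Pdgfb at 39.3 and Myocd at 38.0 of the same table, and Pdgfb and Myocd both at 92.6 of the FLI1-Dam table.

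At each of the 3 genes listed for both factors, the SOX7-Dam peak met a FLI1-Dam peak of the same gene. At Pdgfrb they had 1037 bp in common, 98.7% of the SOX7-Dam peak and 42.3% of the FLI1-Dam peak. At Pdgfb 584 bp were in common with the narrow FLI1-Dam peak of 1100 bp, which is 50.7% of the SOX7-Dam peak and 53.0% of the FLI1-Dam peak. The broad FLI1-Dam peak of Pdgfb lay 10.1 kb from the SOX7-Dam peak. At Myocd 565 bp were in common with the last of the 4 FLI1-Dam peaks, 47.0% of the SOX7-Dam peak and 25.1% of the FLI1-Dam peak. The other 3 Myocd peaks of FLI1-Dam were 14.9, 22.5 and 31.7 kb from it.

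**Figure D3:**
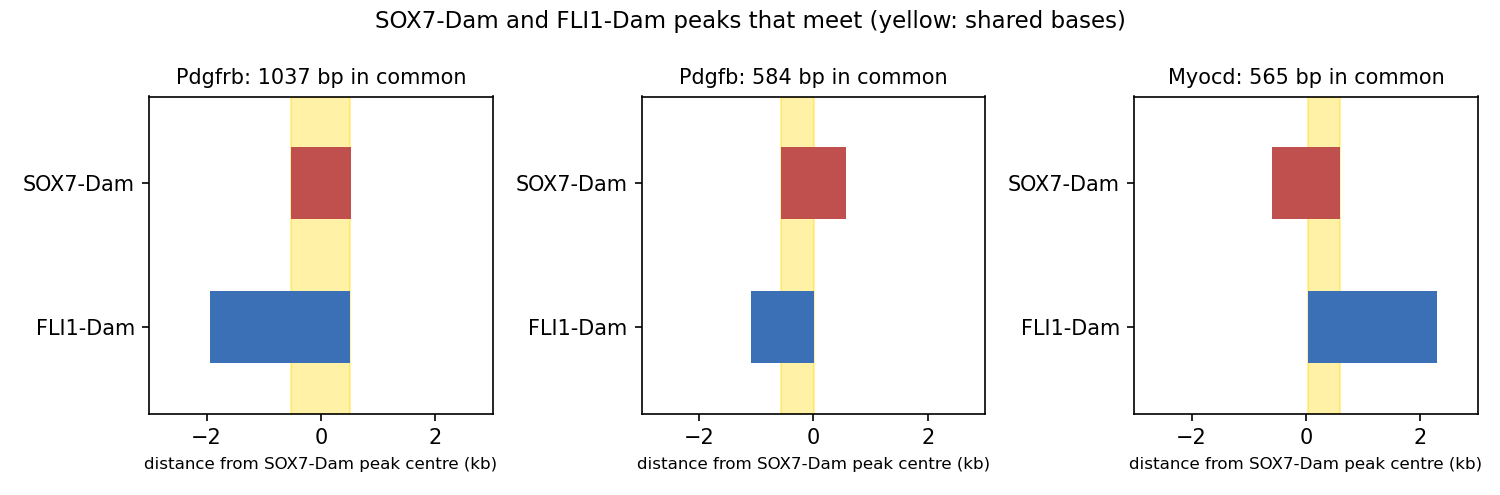
The SOX7-Dam peak (upper bar) and the FLI1-Dam peak it meets (lower bar) at Pdgfrb, Pdgfb and Myocd, in kb from the centre of the SOX7-Dam peak; the shaded span marks the bases in common. The SOX7-Dam peak lies almost whole inside the FLI1-Dam peak at Pdgfrb, and about to its middle in the others.

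The counts of shared peaks were set beside those of all peaks. Of the SOX7-Dam peaks of these genes 3 of 3 met a FLI1-Dam peak (exact binomial 95% interval 29.2 to 100%), against 35.2% of all 10029 SOX7-Dam peaks. Among SOX7-Dam genes with 1 peak that were also listed for FLI1-Dam, 57.7% of 2751 had a peak that met FLI1-Dam, so the 3 of 3 cannot be distinguished from this background. Of the 11 FLI1-Dam peaks 3 met a SOX7-Dam peak (27.3%, 6.02 to 61.0), against 20.9% of all 16834. None of the 3 SOX7-Dam and none of the 11 FLI1-Dam peaks met an ERG-Dam peak, which allows shares of up to 70.8% and 28.5%, against 5.13% and 4.63% of all peaks of these factors. Of the 11 FLI1-Dam peaks, 4 were at Myocd and 3 at Pdgfb. Peaks of 1 gene are not independent, so the intervals over the 11 peaks may be too narrow. The 11 FLI1-Dam peaks had a median distance of 183 kb to the nearest ERG-Dam peak, and all FLI1-Dam peaks a median of 329 kb. The ERG-Dam table is the shortest, with 1588 peaks, and the median ERG-Dam gene has 36 reads, against 95 in the SOX7-Dam table and 169 in the FLI1-Dam table.

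The contractile genes Acta2 and Tagln had no assigned peak, which does not mean that they had no reads. The peak lists hold no gene positions, so their surroundings were read from the RefSeq gene order, taking the 3 protein-coding genes on each side. Next to Acta2 lie Stambpl1 and Fas, and neither was listed. Further out Ankrd22 had 1 FLI1-Dam peak with 300 reads, and the lysosomal lipase gene Lipa had 2 SOX7-Dam peaks with 868 reads, at percentile 98.4, and 1 FLI1-Dam peak with 294 reads, at percentile 95.2. Next to Tagln, Pcsk7 was not listed and Sidt2 had 2 FLI1-Dam peaks with 166 reads. Of the 12 neighbours of Acta2 and Tagln, 4 were listed for SOX7-Dam, 5 for FLI1-Dam and 0 for ERG-Dam. Of the 42 neighbours of all 7 genes the counts were 17 (40.5%), 24 (57.1%) and 4 (9.52%). Over all protein-coding genes the shares were 23.1%, 35.5% and 5.8%.

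RefSeq promoter windows of build GRCm38.p6 were at hand for Acta2, Pdgfa and Pdgfra, and the 250 bases before the start site are shown for Acta2, a gene with no peak, beside the genes listed for FLI1-Dam alone. The windows are Acta2 at chr19:34255374-34255623 (minus strand), Pdgfa at chr5:138994945-138995194 (minus strand, the one of its 2 windows with a motif) and Pdgfra at chr5:75152001-75152250 (plus strand). Capitals mark GATC, the ETS core sequences CCGGAA and AGGAAG, the SOX core sequence AACAAT, and CArG boxes, searched on both strands.
Acta2: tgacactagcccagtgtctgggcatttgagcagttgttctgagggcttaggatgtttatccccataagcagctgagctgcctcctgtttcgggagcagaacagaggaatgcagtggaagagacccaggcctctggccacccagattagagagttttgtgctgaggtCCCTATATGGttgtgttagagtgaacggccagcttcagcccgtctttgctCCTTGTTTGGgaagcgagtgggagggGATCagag
Pdgfa: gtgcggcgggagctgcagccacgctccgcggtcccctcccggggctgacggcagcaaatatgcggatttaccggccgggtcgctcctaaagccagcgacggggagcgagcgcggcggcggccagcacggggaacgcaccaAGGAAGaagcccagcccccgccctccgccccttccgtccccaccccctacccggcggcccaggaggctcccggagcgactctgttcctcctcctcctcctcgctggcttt
Pdgfra: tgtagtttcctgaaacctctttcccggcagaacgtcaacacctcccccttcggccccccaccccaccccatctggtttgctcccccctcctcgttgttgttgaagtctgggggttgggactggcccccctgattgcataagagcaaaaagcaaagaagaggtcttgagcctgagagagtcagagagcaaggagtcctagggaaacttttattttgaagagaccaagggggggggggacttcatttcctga
The Acta2 window holds 2 CArG boxes with 1 G or C in their core, CCCTATATGG from position -84 and CCTTGTTTGG from position -34, counted back from the start site. A CArG box of this looser form, added to the search after the promoters were seen, is in 7.24% of 32851 promoter windows. The strict form is in 1.47% of them and in none of the 4 windows of Acta2, Pdgfa and Pdgfra. The Acta2 window also holds 1 GATC, the site that Dam marks, from position -8, as do 41.9% of all windows. The Pdgfa window holds AGGAAG at position -110, found in 29.5% of windows, and none of the motifs was in the Pdgfra window. CCGGAA and AACAAT, in 12.0% and 9.42% of all windows, were in none of the 4. The peaks are on mm9 and these windows on another build, so whether a peak covers them was not determined.

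Other genes of the same biology were counted from 5 lists with 65 entries, chosen with earlier results of these data known. Among 20 other genes of PDGF ligands and signalling, 13 were listed for FLI1-Dam (65.0%, exact binomial 95% interval 40.8 to 84.6), 11 for SOX7-Dam (55.0%, 31.5 to 76.9) and 1 for ERG-Dam (5.00%, 0.127 to 24.9). Over all protein-coding genes these shares were 35.5%, 23.1% and 5.8%, below the interval of the list for FLI1-Dam and SOX7-Dam and inside it for ERG-Dam. These lists are not matched to other genes on length or peak number, so nothing particular to them is read from the shares. The one listed for all 3 was Plcg1, a phospholipase activated by PDGF receptors, with 3 FLI1-Dam, 2 SOX7-Dam and 1 ERG-Dam peaks, the last with 31 reads and meeting no peak of the other factors. The adaptor gene Nck2 was the densest of this list for SOX7-Dam, at percentile 96.3, and Stat3 for FLI1-Dam, at percentile 78.8. Of the ligand genes Pdgfd had 1 FLI1-Dam peak with 122 reads and Pdgfc had none of any factor. Of the 3 other receptor kinase genes of the same class, Flt3 was listed for SOX7-Dam alone, Csf1r, which neighbours Pdgfrb, for FLI1-Dam alone, and Kit for both with no base in common between its SOX7-Dam and FLI1-Dam peaks.

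The contractile list held 20 further genes, not all of them particular to smooth muscle, such as Vcl, Flna, Tagln2 and Actn1. Of these 20 genes, 12 were listed for FLI1-Dam (60.0%, 36.1 to 80.9), 11 for SOX7-Dam (55.0%, 31.5 to 76.9) and 4 for ERG-Dam (20.0%, 5.73 to 43.7). The shares over all protein-coding genes, 35.5%, 23.1% and 5.8%, lay below the intervals for FLI1-Dam (by a small margin) and SOX7-Dam, and inside that for ERG-Dam. This list too was chosen with earlier results known and is not matched on length or peak number. Nothing particular to it is read from the shares. Itga8, an integrin gene, Synpo2 and Actn1, which encode actin-binding proteins, were listed for all 3 factors. Itga8 stood at percentile 93.3 of the FLI1-Dam table, 32.0 of the SOX7-Dam table and 30.1 of the ERG-Dam table. Mylk, the myosin light chain kinase gene, was the densest of the list for SOX7-Dam, at percentile 96.0, and the calponin family gene Cnn2 for ERG-Dam, at percentile 70.3 with 92 reads. The 5 genes Cnn1, Smtn, Lmod1, Myl9 and Actg2 were in no table, 5 of 20 against 57.3% of all protein-coding genes. The smooth muscle myosin gene Myh11 had 1 SOX7-Dam peak with 66 reads and 1 FLI1-Dam peak with 90 reads, which met. The genes given here for having no peak, and Myh11, were chosen after their values were seen.

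Of 10 genes for SRF and factors that act with it, 8 were listed for FLI1-Dam (80.0%, 44.4 to 97.5), 6 for SOX7-Dam (60.0%, 26.2 to 87.8) and 2 for ERG-Dam (20.0%, 2.52 to 55.6), against 35.5%, 23.1% and 5.8% of all protein-coding genes. The background share lay below the interval for FLI1-Dam and SOX7-Dam and inside it for ERG-Dam. The SRF list was chosen with earlier results known and is likewise unmatched on length and peak number. Nothing particular to it is read from these shares. Tead1, which encodes a TEA domain factor, had 11 FLI1-Dam peaks with 3061 reads, 7 SOX7-Dam peaks with 1187 reads and 1 ERG-Dam peak with 26 reads. The homeobox gene Prrx1 had 1 peak of each factor, and its ERG-Dam peak met both a SOX7-Dam and a FLI1-Dam peak. Mkl2, a myocardin family gene, was the densest of the list for SOX7-Dam, at percentile 75.0 with 7 peaks, none of which met its 3 FLI1-Dam peaks. Srf itself had 1 FLI1-Dam peak with 124 reads at percentile 35.7. Of 12 genes of mural cells, the pericytes and smooth muscle cells of the vessel wall, 6 were listed for FLI1-Dam (50.0%, 21.1 to 78.9), 4 for SOX7-Dam (33.3%, 9.92 to 65.1) and 2 for ERG-Dam (16.7%, 2.09 to 48.4). The shares over all protein-coding genes, 35.5%, 23.1% and 5.8%, lay inside these intervals, so the counts of mural genes cannot be distinguished from them. Anpep, an aminopeptidase gene, was listed for all 3 at percentiles 93.8 (FLI1-Dam), 90.6 (SOX7-Dam) and 74.4 (ERG-Dam), and its ERG-Dam peak met peaks of both other factors. Notch3, the Notch receptor gene of mural cells, was at percentile 93.9 of the FLI1-Dam table. The proteoglycan gene Cspg4, which encodes NG2, was at percentile 88.6 of the ERG-Dam table with 95 reads. Cspg4 stood at percentile 24.0 of the FLI1-Dam table and was not in the SOX7-Dam table, and its ERG-Dam peak met no peak of either. Of the 12 mural genes 6 were in no table, against 57.3% of all protein-coding genes.

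**Figure D4:**
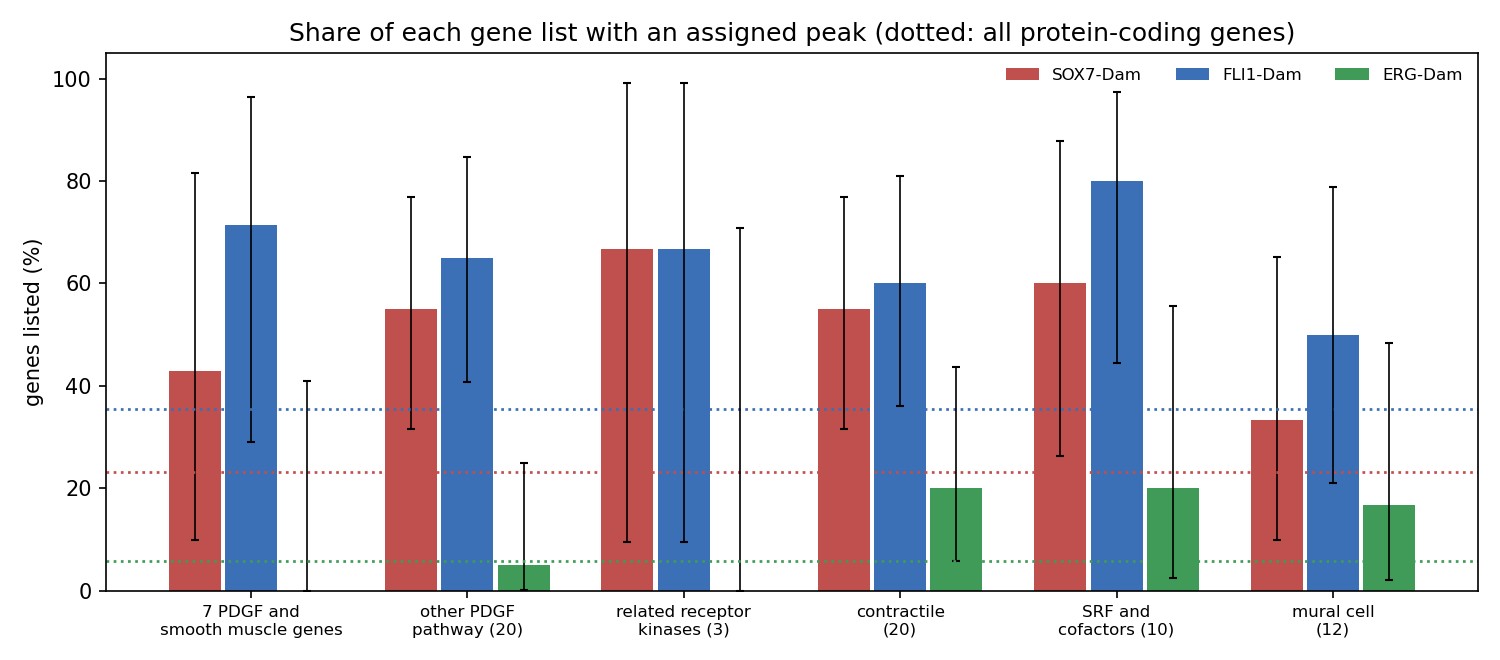
Percent of the genes of each list with an assigned peak of SOX7-Dam, FLI1-Dam or ERG-Dam (bars; whiskers are exact binomial 95% intervals), with the share of all protein-coding genes as dotted lines in the same colours. The 7 PDGF and smooth muscle genes have no ERG-Dam bar, and the FLI1-Dam bar is the highest or level with the highest in every list.

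Of the 27 genes of these 5 lists that were listed for both SOX7-Dam and FLI1-Dam, 21 had a SOX7-Dam and a FLI1-Dam peak of the gene that met, as did 3 of 3 among Pdgfrb, Pdgfb and Myocd and 64.2% of all 4511 genes listed for both. Over all genes of a table the median percentile is 50 by construction. The median density percentile of Pdgfrb, Pdgfb and Myocd in the SOX7-Dam table was 70.4, and that of the 5 listed genes in the FLI1-Dam table was 65.3. In the other lists this median ran between 43.2 and 57.7 for SOX7-Dam and between 48.9 and 71.8 for FLI1-Dam.

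The genes most like the 3 genes of both tables were sought among protein-coding genes with the same number of peaks per factor, by the largest difference in percentile over the 2 tables. For Pdgfrb these were Gm17425 and the histone gene Hist1h4a, which differed by at most 1.19 and 1.62 points among 1101 candidates. For Pdgfb they were Patz1 (0.956 points) and Cmtm8 (5.26 points) among 187 candidates. Myocd had no close match, with Inpp5f at 11.2 and Dagla at 12.2 points among 61 candidates. A likeness over 2 libraries is a description of 2 values per gene.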

How the data were processed

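DamID peak tables of SOX7-Dam, FLI1-Dam and ERG-Dam were used, 1 library each. Per the labels, peaks were called relative to Dam-only libraries, and the controls have no table used here. The genome build is mm9, as the submitters' processing notes name it. No source used here gives the aligner, peak caller, threshold or rule that assigns peaks to genes. Per the file headers the deposited count is the number of reads in a gene's peaks. The deposited signal is reads per kb, and dividing the count by the summed peak length returned it within 0.1 reads per kb in all 6530 SOX7, 10246 FLI1 and 1579 ERG genes. It is scaled neither to library size nor to the control, and the total depth of a library is unknown, so values were ranked only within a table. With each set of peaks counted only 1 time, the tables hold 974550 (SOX7), 2665309 (FLI1) and 135623 (ERG) reads.

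Genes were matched by symbol, and by Ensembl identifier as an alternative. The background is the 21896 protein-coding genes of a RefSeq table of GRCm38.p6, used for names and gene order. Of the protein-coding symbols in the SOX7, FLI1 and ERG tables it held 96.5%, 95.5% and 95.7%. Promoter sequences are RefSeq's. Overlap needs at least 1 bp, and intervals are Poisson or exact binomial (Clopper-Pearson) at 95%. Overlap, ranks and Poisson intervals were tested on simulated data, and the exact binomial intervals were not. Python 3.11.15, numpy 2.4.6, pandas 2.3.3, scipy 1.17.1 and matplotlib 3.10.9 were used. The 7 genes and the lists were chosen with earlier results of these data known. Named were the 7 genes, list genes of all 3 factors, the densest gene per list and table, genes with the same peak numbers and nearest percentiles, and genes of nearest peaks. Others in the text were chosen after their values were seen. Alternatives changed the peaks, genes, ranking and overlap rule.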

Additional observations from a re-analysis of the deposited data

How the results depend on the processing

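Matching by Ensembl identifier, using only peaks of 1 gene, ranking among protein-coding genes, and overlaps within 1 kb or between peaks of the same gene moved no count past 1.5 times and no percentile out of its counting interval. With an overlap of at least 50% of the shorter peak, 2 of the 3 shared peaks were left, because Myocd has 47.0%. Of the 7 genes, 3 were left for FLI1-Dam in the denser 50% of each table, against 18.1% of protein-coding genes; the counts for Pdgfra and Pdgfa were then 0. Among the densest genes, as many as the ERG-Dam table holds, 1 was left for SOX7-Dam (Pdgfrb) and 1 for FLI1-Dam (Myocd), against 5.61% and 5.35% of protein-coding genes.

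In the denser 50%, SOX7-Dam listed 6 PDGF pathway, 0 receptor kinase, 5 contractile, 3 SRF and 2 mural genes. FLI1-Dam listed 7 PDGF pathway, 1 receptor kinase, 7 contractile, 5 SRF and 4 mural genes. For ERG-Dam these counts were 0 PDGF pathway, 0 receptor kinase, 1 contractile, 2 SRF and 2 mural genes. The shares of all protein-coding genes there were 11.6% (SOX7-Dam), 18.1% (FLI1-Dam) and 2.84% (ERG-Dam). Ranked by read count, the SOX7-Dam percentiles were 52.7 for Pdgfrb, 39.3 for Pdgfb and 38.0 for Myocd. The FLI1-Dam ones were 64.0 for Pdgfrb, 46.5 for Pdgfa, and 92.6 for both Pdgfb and Myocd. Among genes with 4 peaks Myocd stood at 91.1. A read count sums over peaks, so it follows their number and width. No paired analysis was possible because each group has 1 library and no result comes from a test. The total depth of the libraries is unknown, so how far depth limits the ERG-Dam table cannot be told.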
